A study of Mus musculus with 32 samples.

Results

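Hepatoblasts, the bipotent epithelial cells of the early fetal liver that give rise to hepatocytes and bile duct cells, secrete proteins into the blood before the liver has its adult architecture. Of the 23154 genes measured, 10 genes that encode such proteins are described here, given by name: *Afp*, *Alb*, *Ttr*, *Rbp4*, *Apoa1*, *Apoa2*, *Apob*, *Apom*, *Fgb* and *Kng1*. Single cells had been picked from the liver, intestine, lung, skin, heart, somite, hindbrain and forebrain of C57BL/6J embryos (3 of E9.5, 2 of E10.5 and 2 of E11.5), and the labels name no agent or targeted allele. E9.5 embryos 1 and 2 were labelled HiSeq 2500 and the other 5 embryos HiSeq 4000, E9.5 embryo 2 was labelled female and the others male, and in E9.5 embryo 3 lung and liver cells shared 1 library and the skin, intestine and somite cells another. By the sample labels, E10.5 and E11.5 had 1 sample per organ, which held the cells of both embryos of that day. The 1916 columns held 14 pairs with identical values, each counted here as 1 cell. Cells were classed by the study, on the expression of these same cells, as epithelial (Epi), mesenchymal (Mes), other mesoderm-derived (MC), neuronal (NC) or hematopoietic (HC). Cells of the epithelial group without an Epi label (EC), 7 of them in the intestine, entered no test.

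The liver gave 47 Epi cells from 6 embryos (9, 16 and 9 at E9.5, 4 and 4 at E10.5, and 5 from E11.5 embryo 2), 76 Mes cells, all from E9.5, and 178 HC cells from 5 embryos. E11.5 embryo 1 gave no liver Epi cell, so that E11.5 rests on 1 embryo and 13 of the 47 cells are later than E9.5. A median of 651595 UMIs (unique molecular identifiers, each tagging 1 molecule) was counted per liver Epi cell, with a range from 83756 to 2404946, against 376612 in liver Mes, 451166 in liver HC and 368816 in intestine Epi cells. A list of 10 hepatoblast markers that are not among the 10 genes held *Hnf4a*, *Foxa2*, *Foxa3*, *Prox1*, *Onecut1*, *Dlk1*, *Krt8*, *Krt18*, *Epcam* and *Cdh1*. Of these, 9 or 10 were expressed in liver Epi cells of every embryo, 3 in liver Mes and 0 or 1 in liver HC cells. The classes were drawn on the expression of these same cells, so this describes the label and does not test it. The epithelium of the intestine also expressed 5 or 6 of these markers, with a summed level of 2450 to 4751 TPM against 1405 to 2519 TPM in liver Epi cells. Erythroid markers summed to 13.9 to 912 TPM in liver Epi cells and to 14382 to 50628 TPM in liver HC cells. In liver Mes cells, 7 or 8 of 8 mesenchymal markers were expressed, beside cardiomyocyte markers at 708 to 4761 TPM.

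By way of background, alpha-fetoprotein and albumin are related carriers encoded by neighbouring genes, the former being the main serum protein of the fetus. Transthyretin carries thyroid hormone and, with retinol-binding protein 4, vitamin A, while the apolipoproteins build lipoprotein particles. Fibrinogen B beta is 1 chain of the clotting protein and kininogen 1 is the precursor of bradykinin. Levels are given in what the study names TPM, which is a gene's share of all UMIs in a cell, scaled to 1000000 and not divided by gene length, since only the 3′ side of a transcript was counted. For each embryo log2(TPM/10 + 1) was averaged over cells, and the result is called the log2 level, on which a gene counts as expressed at 1 or more and on which fold changes of low genes are understated.

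Sequences of 250 bases before the RefSeq start (GRCm38.p6, read 5′ to 3′ along the gene) are shown for *Alb* and *Afp*, neighbours on chromosome 5, for *Fgb* and *Fga*, another pair of neighbours, and for *Apob*, the gene nearest to 0 at E9.5. They lie at chr5:90460620-90460869 (plus strand) for *Alb*, chr5:90490464-90490713 (plus strand) for *Afp*, chr3:83049864-83050113 (minus strand) for *Fgb*, chr3:83025903-83026152 (plus strand) for *Fga* and chr12:7977427-7977676 (plus strand) for *Apob*. Capitals mark the only matches, on either strand, to GTTAAT (known from HNF1 sites), TGTTTAC (from FOXA sites), CAAAGTC (from HNF4 sites) or the core promoter motif TATAAA.
Alb: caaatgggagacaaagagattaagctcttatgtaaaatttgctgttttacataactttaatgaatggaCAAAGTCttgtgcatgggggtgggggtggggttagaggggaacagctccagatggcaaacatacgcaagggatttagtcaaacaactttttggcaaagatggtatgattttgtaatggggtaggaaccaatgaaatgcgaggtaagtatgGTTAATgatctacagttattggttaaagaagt
Afp: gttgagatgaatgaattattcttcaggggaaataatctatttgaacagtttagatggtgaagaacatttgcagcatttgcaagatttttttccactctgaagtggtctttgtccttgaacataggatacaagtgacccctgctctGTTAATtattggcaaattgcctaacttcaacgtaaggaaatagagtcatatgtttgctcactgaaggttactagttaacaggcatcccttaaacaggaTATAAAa
Fgb: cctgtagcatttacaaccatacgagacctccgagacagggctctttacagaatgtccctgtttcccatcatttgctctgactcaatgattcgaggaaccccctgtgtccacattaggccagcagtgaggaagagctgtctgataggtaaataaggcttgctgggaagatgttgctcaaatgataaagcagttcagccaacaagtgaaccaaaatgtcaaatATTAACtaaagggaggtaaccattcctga
Fga: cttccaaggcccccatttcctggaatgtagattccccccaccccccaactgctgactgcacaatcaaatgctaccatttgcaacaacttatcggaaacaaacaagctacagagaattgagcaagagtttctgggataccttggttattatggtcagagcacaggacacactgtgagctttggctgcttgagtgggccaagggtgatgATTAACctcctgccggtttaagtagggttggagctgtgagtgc
Apob: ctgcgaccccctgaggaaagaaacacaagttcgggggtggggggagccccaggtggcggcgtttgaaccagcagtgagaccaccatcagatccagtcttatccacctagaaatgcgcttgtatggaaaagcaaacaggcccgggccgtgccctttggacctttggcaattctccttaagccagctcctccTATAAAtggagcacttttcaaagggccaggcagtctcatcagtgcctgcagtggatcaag
GTTAAT was found 32 to 27 bases before the start of *Alb* and 105 to 100 bases before that of *Afp*, and its reverse complement 29 to 24 bases before *Fgb* and 43 to 38 bases before *Fga*. CAAAGTC was found 182 to 176 bases before *Alb*, and TATAAA 7 to 2 bases before *Afp* and 60 to 55 bases before *Apob*. Of 32851 RefSeq windows of the same length, 6.43% held GTTAAT, 3.17% TGTTTAC, 3.84% CAAAGTC and 12.4% TATAAA. A window was found for 8 of the 10 genes, the exceptions being *Ttr* and *Kng1*. All distances are from the RefSeq start, which for 4 of these genes is not the GENCODE M21 start. The windows of *Alb* and *Afp* end at 90460869 and 90490713, before the GENCODE starts at 90460897 and 90490737. Those of *Fga* and *Apob* end at 83026152 and 7977676, past the GENCODE starts at 83026076 and 7977648. Distances from the GENCODE starts would therefore differ. These are matches of letters only, and no binding was measured.

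Of the 10 genes *Afp* had the highest level, and its neighbour *Alb* was 8th by mean log2 level. *Afp* (chromosome 5 from 90490737 to 90508907, plus strand, GENCODE M21 on GRCm38, the build of mm10) had log2 levels of 8.55, 8.72 and 9.85 in the liver Epi cells of E9.5 embryos 1, 2 and 3, of 10.33 and 11.10 in those of E10.5 embryos 1 and 2, and of 10.71 in those of E11.5 embryo 2. In TPM these were 3861, 4907, 10208, 14039, 22928 and 16958, so that every later embryo lay above every E9.5 embryo. *Alb*, which ends 14134 bases before *Afp* begins (chromosome 5 from 90460897 to 90476602, plus strand), had log2 levels of 3.90, 4.08 and 5.50 at E9.5, 6.43 and 5.86 at E10.5 and 8.76 at E11.5. The E11.5 embryo stood far above the others at 4411 TPM, against 717 to 891 TPM at E10.5 and 213 to 498 TPM at E9.5. The ratio of *Afp* to *Alb* in TPM was 17.5, 23.1 and 20.5 in the 3 E9.5 embryos, 15.8 and 32.0 in the E10.5 embryos and 3.84 in the E11.5 embryo. *Afp* exceeded *Alb* in all 6 embryos, and its share of the TPM of the 10 genes lay between 24.8% and 47.6%.

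*Ttr*, on chromosome 18, was the steadiest of the 10 genes. Its log2 levels in liver Epi cells were 7.66, 8.07 and 7.82 at E9.5, 8.04 and 8.22 at E10.5 and 8.29 at E11.5, and the days overlapped. *Rbp4* (chromosome 19 from 38116629 to 38125281, minus strand), whose product circulates bound to transthyretin, had 6.24, 8.15 and 8.60 at E9.5, 8.68 and 9.27 at E10.5 and 9.23 at E11.5. The later embryos lay above the E9.5 embryos, though the nearest pair was 8.60 and 8.68, and E9.5 embryo 1 stood well below the rest.

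Among the apolipoproteins, those of high-density lipoprotein were abundant from E9.5 on and *Apob* was not. *Apoa1*, the main protein of that particle (chromosome 9 from 46228580 to 46230466, plus strand), had log2 levels of 5.30, 6.88 and 7.41 at E9.5, 7.42 and 8.21 at E10.5 and 8.88 at E11.5. The groups touched without overlapping. *Apoa2*, another protein of the same particle (chromosome 1 from 171225054 to 171226379, plus strand), had 7.04, 8.32 and 8.55, then 8.39 and 9.24, then 9.15, and *Apom*, which carries sphingosine-1-phosphate on it (chromosome 17 from 35128997 to 35132050, minus strand), had 5.45, 7.17 and 7.37, then 7.12 and 7.83, then 7.98. For both, E9.5 embryo 1 was lowest. E9.5 embryo 3 lay above the lowest later embryo for both genes, and E9.5 embryo 2 did so for *Apom* only.

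*Apob* encodes the structural protein of very-low-density and low-density lipoprotein (chromosome 12 from 7977648 to 8016835, plus strand). Its log2 levels were 0.05, 0.94 and 1.42 at E9.5, 4.00 and 3.43 at E10.5 and 3.37 at E11.5, which is a mean of 0.427, 22.6 and 24.9 TPM against 179, 131 and 113 TPM. The days stood wide apart, and the E9.5 level of embryo 1 came from 1 UMI in 9 cells. UMIs of *Apob* were found in 18 of 34 cells at E9.5 and in 13 of 13 later cells, and after each cell had been thinned to 83000 UMIs in 11 of 34 and 13 of 13. As a comparison set, 0.606% of the 165 lung cells of embryos other than E9.5 embryo 3 held an *Apob* UMI, at a median depth of 281321 UMIs. These lung cells do not lack all 10 genes, since *Rbp4* (2.02) and *Ttr* (1.33) in the 3 lung Epi cells of E9.5 embryo 2 and *Afp* (1.20) in the lung Mes cells of E11.5 embryo 1 passed the expression limit.

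The 2 genes of coagulation and the kinin system took different courses. *Fgb* (chromosome 3 from 83040141 to 83049863, minus strand) had log2 levels of 7.10, 7.79 and 6.65 at E9.5, 7.41 and 8.42 at E10.5 and 7.05 at E11.5, with full overlap of the days. *Kng1* (chromosome 16 from 23057865 to 23082078, plus strand) had 0.30, 1.17 and 1.41 at E9.5, 3.53 and 3.30 at E10.5 and 4.84 at E11.5, or 3.06, 22.4 and 20.8 TPM against 142, 154 and 350 TPM. Every later embryo exceeded the E9.5 embryos, and the E11.5 embryo was highest. *Kng1* UMIs were present in 21 of 34 cells at E9.5 and in 13 of 13 later cells (15 of 34 and 13 of 13 after thinning), against 0 of the 165 lung cells, which by counting alone allows up to 1.82% of cells with a UMI and sets no limit on cells that express the gene.

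**Figure D1:**
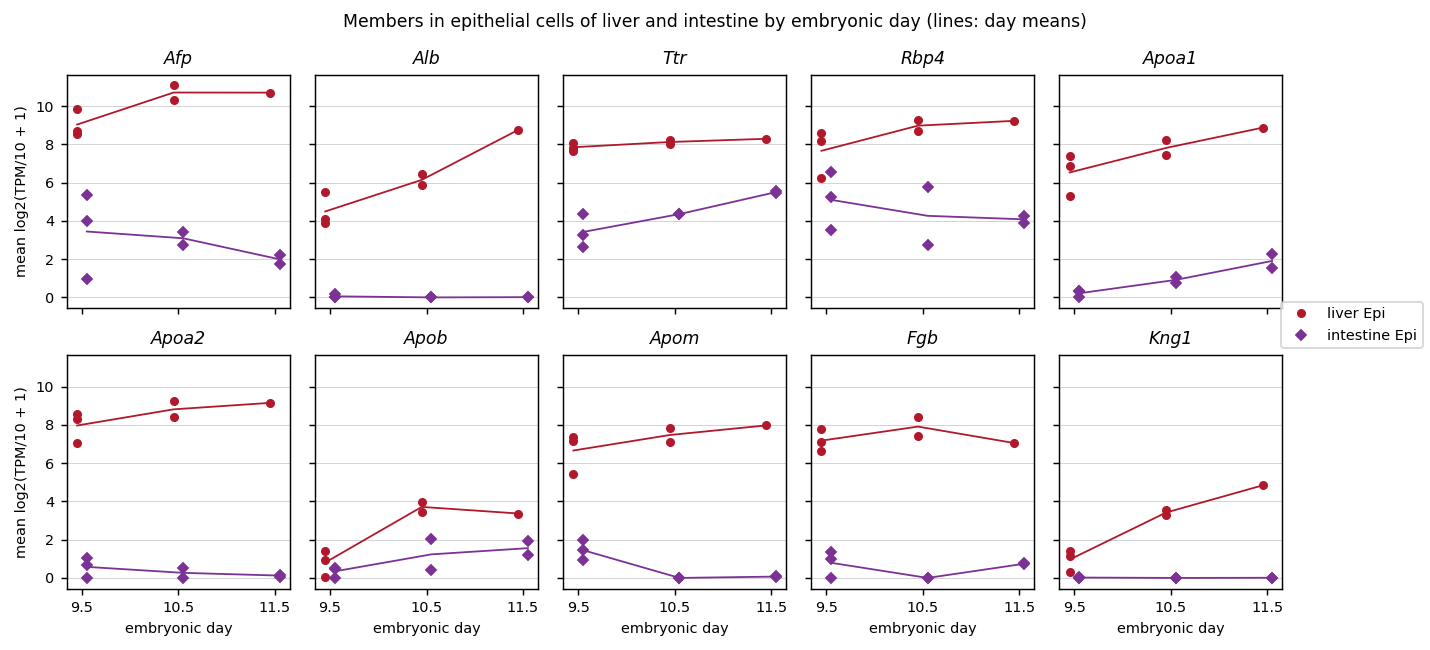
Mean log2(TPM/10 + 1) of each gene (vertical axis) against embryonic day (horizontal axis) in epithelial cells of the liver (red circles) and the intestine (purple diamonds), with 1 point per embryo and lines through the means of a day. Liver levels of *Alb*, *Apob* and *Kng1* climb from E9.5 to the later days while those of *Ttr* and *Fgb* stay level, and *Ttr* and *Apoa1* climb in the intestine.

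Of the 10 genes, 6 had every later embryo above every E9.5 embryo (*Afp*, *Alb*, *Rbp4*, *Apoa1*, *Apob* and *Kng1*), beside 5.15% of the 10806 genes measured in liver Epi cells. The ratio of the mean TPM of the later embryos to that of the E9.5 embryos was 14.0 for *Kng1*, 8.83 for *Apob* and 6.47 for *Alb*, and ran from 1.21 for *Ttr* to 2.84 for *Afp* in the other 7. By log2 level, E9.5 embryo 1 was the lowest embryo for 9 of the 10 genes, *Fgb* being the exception. The instrument label moves with the day, since no HiSeq 2500 embryo is later than E9.5.

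Slopes on embryonic day came from a limma fit across all genes in epithelial cells of liver, intestine, lung and skin, which share 1 estimate of the spread, and 4 of the liver slopes passed the test. *Kng1* rose by 2.04 log2 units per day (SE 0.16, adjusted p 4.06e-09), *Alb* by 2.04 (SE 0.22, adjusted p 9.33e-07), *Apob* by 1.61 (SE 0.30, adjusted p 0.00178) and *Apoa1* by 1.19 (SE 0.26, adjusted p 0.00695). These 4 of 10 stand beside 0.937% of 14405 genes that were called higher with day. The slopes of *Afp* (1.0, SE 0.47, adjusted p 0.409), *Rbp4* (0.89, SE 0.44, adjusted p 0.461), *Apom* (0.69, adjusted p 0.306) and *Apoa2* (0.64, adjusted p 0.367) were positive and did not pass the test. *Ttr* (0.23, SE 0.22, adjusted p 0.833) and *Fgb* (0.09, SE 0.26, adjusted p 1.0) had slopes within about 1 SE of 0. *Fgb* and *Ttr* nevertheless exceeded 1000 TPM in every embryo.

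Only *Alb* and *Kng1* kept their calls in every alternative fit. Among the HiSeq 4000 embryos alone, which include 1 of the 3 E9.5 embryos, the slope of *Apob* was 0.97 (adjusted p 0.392) and that of *Apoa1* 0.73 (adjusted p 0.423), and edgeR on summed UMIs called neither, at slopes of 2.09 (adjusted p 0.546) and 1.17 (adjusted p 0.380). *Apoa1* also lost its call without E11.5 embryo 2 (1.28, adjusted p 0.336) or E9.5 embryo 1 (0.84, adjusted p 0.0599) and on log2(TPM + 1) (1.21, adjusted p 0.196). The slope of *Apob* was 2.91 without E11.5 embryo 2.

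The same genes were followed in the intestinal epithelium, whose 109 Epi cells came from 7 embryos and which, like the liver, is of endodermal origin. There *Ttr* rose by 1.04 per day (SE 0.18, adjusted p 0.00125), from log2 levels of 2.62, 4.37 and 3.27 at E9.5 through 4.33 and 4.38 to 5.54 and 5.47 at E11.5. *Apoa1* rose by 0.84 per day (SE 0.21, adjusted p 0.0358), from 0, 0.34 and 0.31 through 1.09 and 0.74 to 1.53 and 2.29. The E11.5 embryos were the highest for both genes. These 2 of 10 compare with 0.597% of genes called higher. *Ttr* kept its call without any 1 embryo and among HiSeq 4000 embryos, and edgeR on summed UMIs gave it a slope of 0.38 (adjusted p 0.817). The call of *Apoa1* was lost when E9.5 embryo 2, either E10.5 embryo or either E11.5 embryo was left out (0.67 to 0.97, adjusted p up to 0.456) and among HiSeq 4000 embryos (0.83, adjusted p 0.137).

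*Afp* had intestinal log2 levels of 0.95, 4.01 and 5.37 at E9.5, 3.43 and 2.75 at E10.5 and 1.77 and 2.22 at E11.5, with a slope of −0.71 (adjusted p 0.590). E9.5 embryo 1, with 5 cells, stood apart from the other E9.5 embryos, and without it the slope was −1.35 (adjusted p 0.0260), while among HiSeq 4000 embryos it was −1.61 (adjusted p 0.00927). *Apom* had a slope of −0.74 (adjusted p 0.133), which edgeR on summed UMIs called at −3.42 (adjusted p 6.98e-04), and *Rbp4* of −0.53 (adjusted p 0.745). *Alb* and *Kng1* were near 0 at every day, at no more than 0.17 and 0.06.

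The slopes of liver and intestine differed for *Alb* (by 2.06 per day, SE 0.29, adjusted p 1.08e-04), *Kng1* (2.05, SE 0.21, adjusted p 1.08e-06) and *Apom* (1.42, SE 0.37, adjusted p 0.0491), beside 0.673% of genes with a larger slope in the liver. *Kng1* kept this call without any 1 embryo, *Alb* lost it without E11.5 embryo 2 (1.68, adjusted p 0.138) and among HiSeq 4000 embryos (1.62, adjusted p 0.0808), and *Apom* lost it without any 1 of the 7 embryos (1.03 to 1.65, adjusted p 0.0611 to 0.461). For *Afp* the difference was 1.71 (SE 0.61, adjusted p 0.205), and it passed the test when E9.5 embryo 1 was left out (2.16, adjusted p 0.0279). For *Apob* it was 0.98 (adjusted p 0.291), and 2.11 without E11.5 embryo 2 (adjusted p 0.0350). The difference for *Ttr* had the other sign, at −0.80 (SE 0.28, adjusted p 0.196).

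**Figure D2:**
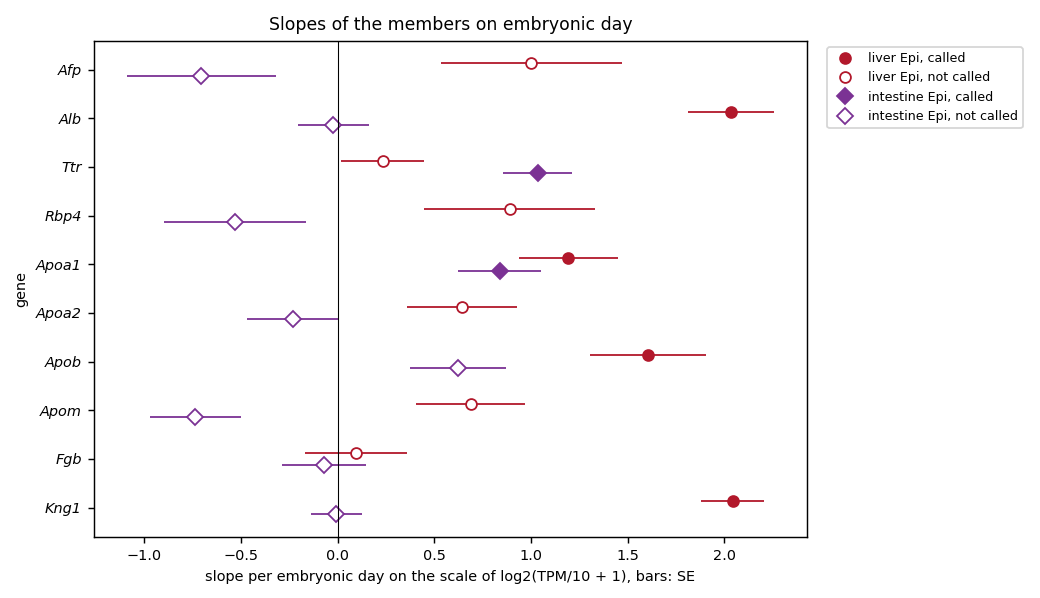
Slope of each gene per embryonic day on the log2(TPM/10 + 1) scale (horizontal axis) in epithelial cells of liver (circles, 6 embryos) and intestine (diamonds, 7 embryos), with bars of 1 SE and filled symbols for slopes that were called. *Alb* and *Kng1* lie near 2 in the liver and near 0 in the intestine, and *Ttr* is called in the intestine only.

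Fibrinogen is a hexamer of 3 kinds of chain whose genes lie side by side on chromosome 3, *Fga* 6513 bases from *Fgb* and *Fgg* 11026 bases from *Fga*. The ratio of *Fgb* to *Fga* in TPM was 65.8, 52.5 and 18.7 in E9.5 liver Epi cells, 14.6 and 20.1 at E10.5 and 5.34 at E11.5, which was the lowest. The ratio of *Fgb* to *Fgg* was 5.71, 2.60 and 1.70 at E9.5, then 2.95 and 2.63, then 1.98. *Fga* rose by 1.53 per day in the liver (SE 0.18, adjusted p 2.70e-06), while *Fgg* had a slope of 0.36 (adjusted p 0.644). The difference between the slopes of *Fga* and *Fgb* was not tested.

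Across epithelia, all 10 genes were higher in liver Epi cells than in the mean of intestine, lung and skin Epi cells, beside 4.25% of 15608 genes. The 10 genes were chosen as hepatoblast products, with earlier results of these data known. A higher level in the liver was thus built into the list, and the values below describe its size. *Afp* had the largest positive difference of all genes, 8.56 log2 units (SE 0.44), and *Fgb* the second smallest p of all genes, at a difference of 7.18 (SE 0.19, adjusted p 3.99e-32). *Alb* was higher by 5.74 (SE 0.29), *Kng1* by 2.42 (SE 0.27, adjusted p 9.99e-10) and *Apob* by 1.88 (SE 0.29, adjusted p 1.66e-06). *Kng1* was expressed in 27 of 47 liver Epi cells and, in other epithelia, in 1 intestine Epi cell of E9.5 embryo 2. It passed the expression filter only through liver Epi cells, so the direction of its difference was fixed. *Alb* was expressed in 45 of 47 liver Epi cells and in 2 intestine Epi cells of that embryo. The median difference of the 10 genes was 6.68, beside a median of −0.0015 over all genes. With E9.5 embryos only, 8 of the 10 were called, and *Kng1* (0.95) and *Apob* (0.68) fell under the size limit of 1. Values without the lung cells of E9.5 embryo 3, which shared a library with liver cells, ranged over the 10 genes from 1.89 for *Apob* to 8.71 for *Afp*.

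**Figure D3:**
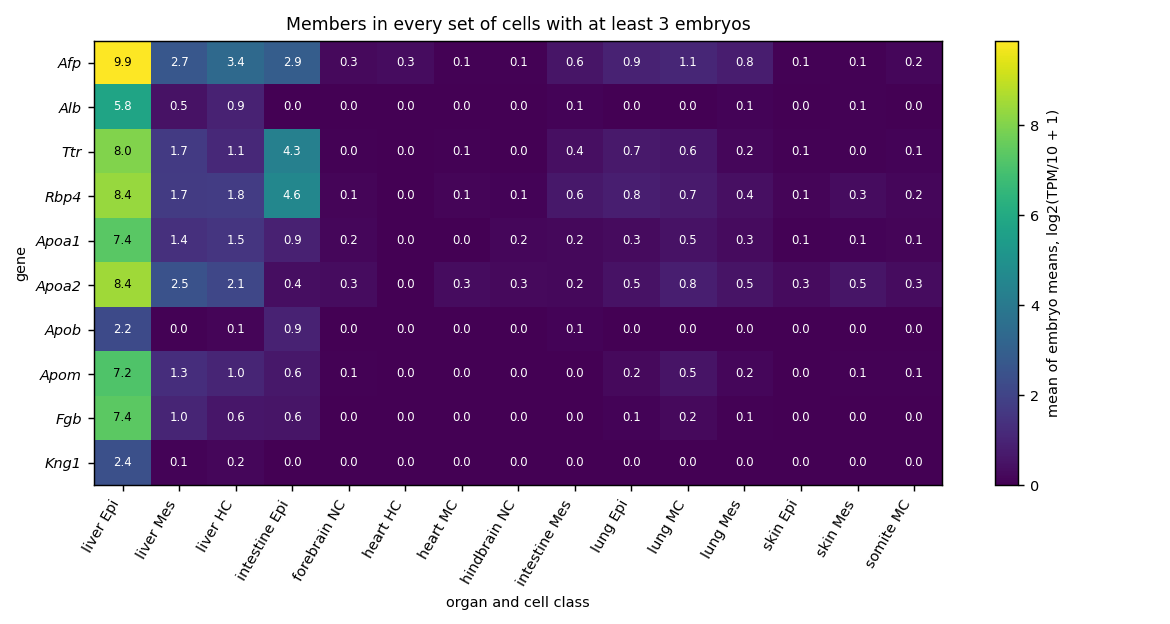
Mean over embryos of the log2(TPM/10 + 1) level (colour and number) of each gene (rows) in each of the 15 sets of organ and cell class with at least 3 embryos (columns). Liver Epi cells hold the highest value in every row, and the next highest is 4.6 for *Rbp4* in intestine Epi cells.

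Over these 15 sets the liver Epi mean was 9.87 ± 1.05 (SD, n = 6) for *Afp*, 8.45 ± 0.79 for *Apoa2*, 8.37 ± 1.12 for *Rbp4*, 8.02 ± 0.24 for *Ttr*, 7.40 ± 0.63 for *Fgb*, 7.35 ± 1.22 for *Apoa1*, 7.15 ± 0.90 for *Apom*, 5.76 ± 1.78 for *Alb*, 2.43 ± 1.73 for *Kng1* and 2.20 ± 1.61 for *Apob*. Of the neighbours in this order, *Afp* and *Apoa2*, and *Alb* and *Kng1*, differed by more than the larger of their SDs, and the other neighbours by less. The set in second place was not the same for each gene. It was intestine Epi for *Ttr* (4.28 ± 1.06, n = 7), *Rbp4* (4.57 ± 1.34) and *Apob* (0.94 ± 0.79), liver HC for *Afp* (3.37 ± 0.33, n = 5), *Alb* (0.95 ± 0.58), *Apoa1* (1.52 ± 0.46) and *Kng1* (0.17 ± 0.12), and liver Mes for *Apoa2* (2.50 ± 1.68, n = 3), *Apom* (1.29 ± 1.11) and *Fgb* (1.01 ± 0.99). For 7 of the 10 genes no set reached the lowest liver Epi embryo, while 1 set did for *Rbp4*, 1 for *Kng1* and 4 for *Apob*. Sets with fewer embryos were not ranked, among them 3 intestine EC cells of E10.5 embryo 2, with *Ttr* at 5.28 and *Rbp4* at 5.04.

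Within the liver, the classes were drawn on the expression of these genes among others, so that their differences are a description with no test. Embryo levels in Epi cells lay above all those in Mes cells for 9 of the 10 genes (7.87% of all genes) and above all those in HC cells for 8 of 10 (11.3% of all genes). The exceptions were *Apob* in both cases and *Kng1* against HC cells, through the low Epi levels of E9.5 embryo 1. *Afp* had log2 levels of 1.11, 2.88 and 4.10 in the Mes cells of E9.5 embryos 1, 2 and 3, and of 3.61, 3.27, 2.92, 3.31 and 3.76 in the HC cells of E9.5 embryo 3, both E10.5 embryos and both E11.5 embryos. In no embryo did either class reach the Epi level of *Afp*. UMIs of *Afp* were found in 73 of 76 liver Mes cells and in all 178 liver HC cells, against 35.8% of the 165 lung cells.

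**Figure D4:**
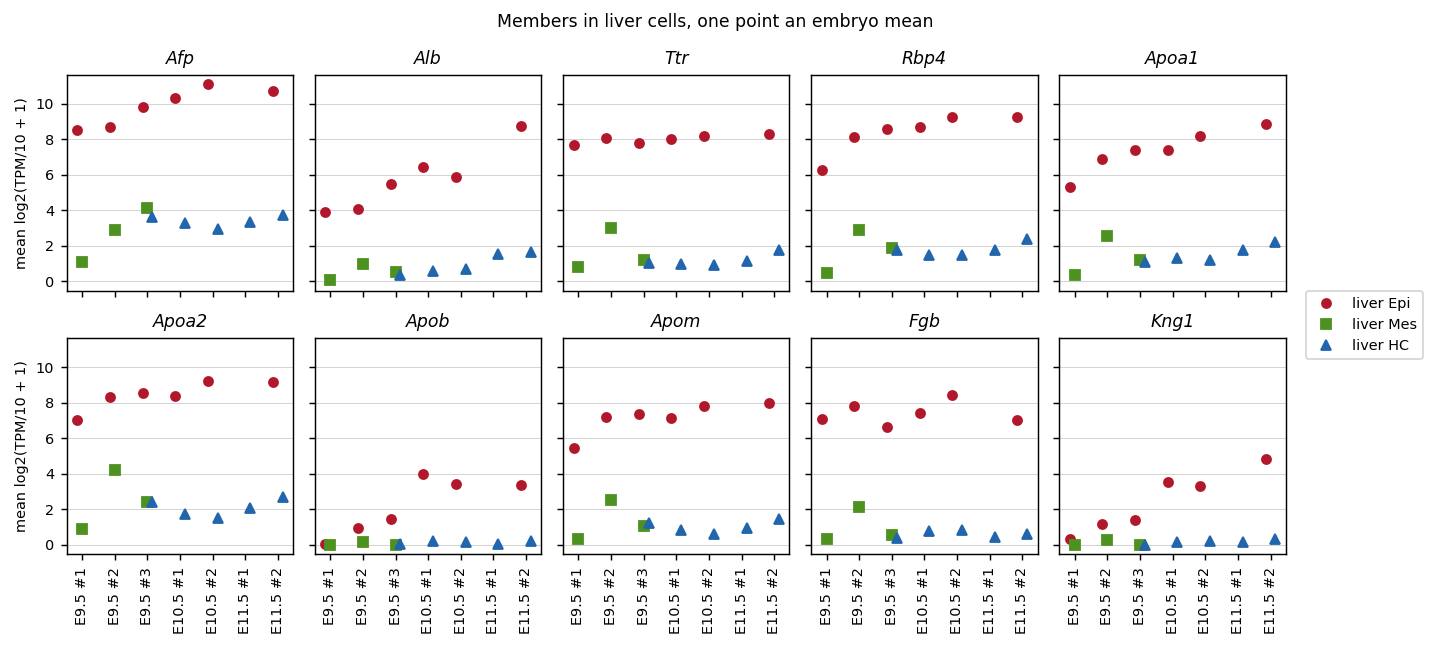
Mean log2(TPM/10 + 1) of each gene (vertical axis) in liver Epi (red circles), Mes (green squares) and HC cells (blue triangles) of each embryo with at least 3 such cells (horizontal axis). Epi cells lie above the other classes for 8 genes in every embryo, and for *Apob* and *Kng1* the classes meet at E9.5 embryo 1.

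The share of a cell's UMIs that came from the 10 genes summed these levels. It averaged 1.12%, 1.98% and 2.54% in liver Epi cells of E9.5 embryos 1, 2 and 3, 3.05% and 4.82% at E10.5 and 4.79% at E11.5, and ran from 0.779% to 6.41% over single cells. Liver Mes cells averaged 0.00493%, 0.0650% and 0.0416% per embryo and liver HC cells 0.0254% to 0.147%. Of 270 liver cells of other classes, 2 lay above the lowest liver Epi cell. Both were HC cells of E11.5 embryo 2, at 2.99% and 1.59%. The former held 1405698 UMIs with *Afp* at 7925 TPM and *Alb* at 2927 TPM, beside the erythroid factor *Klf1* at 349 TPM and the hepatocyte factor *Hnf4a* at 89.6 TPM. Of the hepatoblast markers *Foxa2* (0), *Onecut1* and *Epcam* (both 5.69 TPM) were under the expression limit in that cell. So was *Hba-a1* (0) of the erythroid markers, while the others of both lists passed the limit. Whether this was 1 cell or a doublet was not tested. Outside the liver the highest of 1484 cells had 0.572%, in the intestine.

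**Figure D5:**
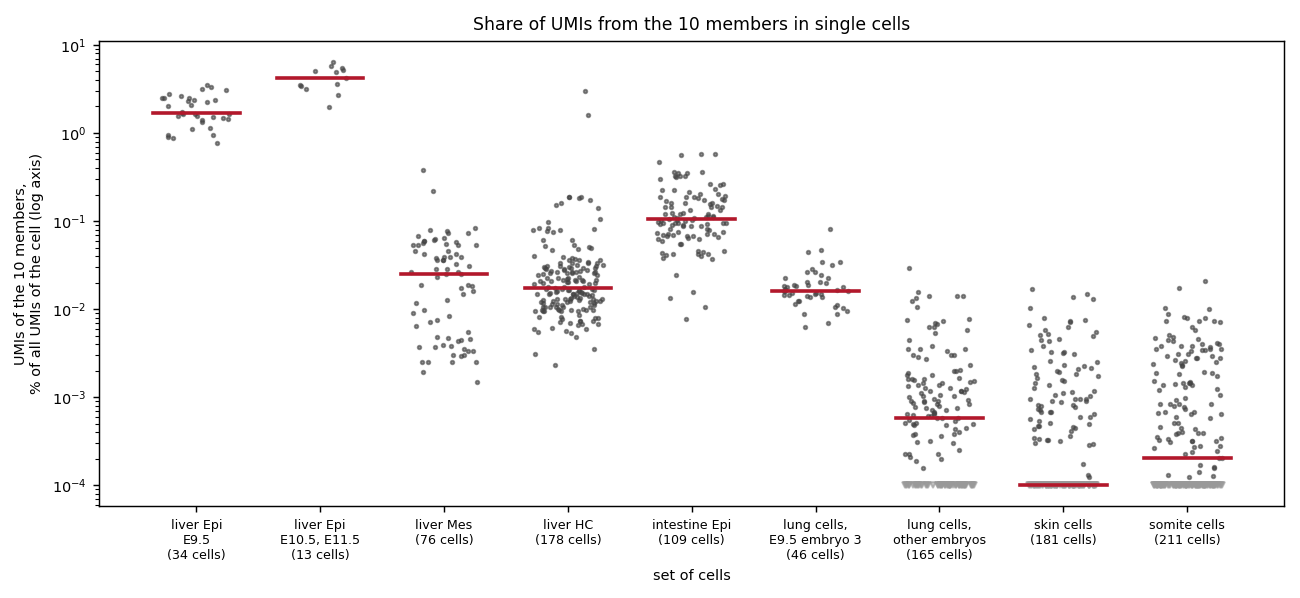
UMIs of the 10 genes as a percent of all UMIs of a cell (vertical log axis) in each set of cells (horizontal axis), with 1 point per cell. A red bar marks the median, and cells at or below 0.0001% are drawn in grey at the bottom. Liver Epi cells lie between 0.779% and 6.41%, and 2 liver HC cells reach that range. Lung cells of E9.5 embryo 3 have a higher median than those of other embryos, though single cells overlap.

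Hematopoietic cells allowed the organs to be compared within 1 class, by the organ label. The class holds several cell types, and the paper reports that most primitive macrophages were not from the liver. At E9.5 the liver gave a mean from embryo 3 and the other organs from embryos 1 and 2, which differ in instrument label. The parts of cell type and instrument label were not tested. Of the 10 genes, 5 were called higher in liver HC cells (5 embryos) than in the 66 HC cells of other organs (6 embryos), beside 0.611% of 12604 genes. They were *Afp* (3.20, SE 0.22, adjusted p 5.29e-06, the smallest p of all genes), *Apoa2* (1.93, SE 0.24, adjusted p 0.00131), *Rbp4* (1.70, SE 0.20, adjusted p 9.44e-04), *Apoa1* (1.49, SE 0.20, adjusted p 0.00302) and *Ttr* (1.12, SE 0.16, adjusted p 0.00389). In HC cells of other organs *Afp* had log2 levels of 0 to 0.49, below the 2.92 to 3.76 of every liver embryo. The highest embryo there had 0.50 for *Apoa2*, 0.23 for *Rbp4*, 0.19 for *Ttr* and 0.09 for *Apoa1*. These genes entered the test mainly through liver HC cells, and levels so near 0 left little room for a difference of the other sign. *Apom* (0.99, adjusted p 0.00518), *Alb* (0.95, adjusted p 0.0370) and *Fgb* (0.59, adjusted p 0.00780) passed the p threshold under the size limit, and *Ttr* fell under that limit without E11.5 embryo 2 (0.97). *Apom* passed the limit without any 1 of E10.5 embryo 2, E11.5 embryo 1 and E9.5 embryo 2 (1.01 to 1.09), and *Alb* without E9.5 embryo 3 (1.10). On summed UMIs edgeR called 9 of the 10 genes, and also more of all genes than limma, as given under the dependence on processing. Summed UMIs weigh cells by depth, and those of E11.5 embryo 2 came largely from the few cells described next. With the embryo as a block, the same 5 genes were called among 316 in place of 103 of all genes.

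The levels in liver HC cells, taken as UMIs per 1000000 over the summed cells of an embryo, were a small part of the Epi level. In E11.5 embryo 2 they were 4.03% to 5.10% of it over the 10 genes. Without the HC cells at 2.99% and 1.59%, which were picked by that share, the other 38 cells were at 0.208% to 1.81% with a median of 0.660%, the mean share of the 10 genes fell to 0.0344% from 0.147%, and *Kng1* had a log2 level of 0.14 in place of 0.32, below all liver Epi embryos. In the E10.5 embryos the median over the 10 genes was 1.04% (0.589% to 1.90%) and 0.537% (0.285% to 3.31%), and in E9.5 embryo 3 it was 0.713%. The part of free RNA in these levels was not tested. Hepatoblast markers other than the 10 genes summed to 21.9 to 48.6 TPM in liver HC cells.

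Liver Mes cells, all from E9.5, differed more among embryos. *Apoa2* had log2 levels of 0.86, 4.22 and 2.42 in E9.5 embryos 1, 2 and 3, *Ttr* of 0.80, 2.98 and 1.20, and *Apom* of 0.31, 2.49 and 1.07. E9.5 embryo 2 was highest for 9 of the 10 genes, *Afp* being the exception. Against Mes cells of intestine, lung and skin, *Afp* was higher by 2.22 (SE 0.58, adjusted p 0.0175), and *Apoa2*, *Ttr* and *Apom* were also called, which makes 4 of 10 beside 1.10% of all genes. *Fgb* (0.98, SE 0.25, adjusted p 0.0148) stayed under the size limit.

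These calls depended on which embryos entered. None of the 10 genes was called without E9.5 embryo 2, where *Afp* (2.11, adjusted p 0.166) kept about its size and *Apoa2* (1.25), *Ttr* (0.81) and *Apom* (0.59) were smaller, and 7 were called without E9.5 embryo 1, *Rbp4* (1.87), *Apoa1* (1.68) and *Fgb* (1.32) being added. *Fgb* was also called without E9.5 embryo 3 (1.22) and *Apoa1* without E11.5 embryo 2 (1.19), *Afp* lost its call without E10.5 embryo 1 (2.15, adjusted p 0.0565), and *Apom* without either E10.5 or either E11.5 embryo (1.18 to 1.19). In E9.5 embryos alone none was called, and the embryo as a block added *Apoa1* (1.26, adjusted p 0.0416). On summed UMIs edgeR called 9, and also more of all genes than limma, as given under the dependence on processing. Summed UMIs weigh cells by depth. One Mes cell of E9.5 embryo 2 had *Alb* at 1607 TPM and *Kng1* at 221 TPM with *Afp* at 83.6 TPM, unlike any liver Epi embryo, in which *Afp* exceeded *Alb*. This cell held 1016821 UMIs. Summed over Mes cells, *Alb* had 117 UMIs per 1000000 in that embryo, against 0.496 and 5.40 in E9.5 embryos 1 and 3.

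The 46 lung cells of E9.5 embryo 3, sequenced in 1 library with liver cells, held all 10 genes above the level of the 165 other lung cells. For *Apob* and *Kng1* this rests on very few UMIs, found in 4.35% against 0.606% of cells for *Apob* and in 2.17% against 0% for *Kng1*. *Afp* in the lung cells of E9.5 embryo 3 stood at 81.8 UMIs per 1000000 against 2.69, with UMIs in 100% against 35.8% of cells, at median depths of 212728 and 281321 UMIs. Over the 10 genes these lung cells had 0.365% to 0.987% of the level in liver Epi cells of the same embryo. The sharing of the library moves with this level, and its part in it was not tested.

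Single cells varied within an embryo. Over the 9, 16 and 9 E9.5 cells *Afp* ran from 1217 to 17615 TPM with a median of 4699, and over the 13 later cells from 6040 to 29134 TPM with a median of 17027, so that the days overlapped by cell but not by embryo. *Alb* at E9.5 ran from 0 to 761 TPM with a median of 258, and all 5 cells of E11.5 embryo 2 exceeded that range, at 3379 to 6132 TPM. In the 16 Epi cells of E9.5 embryo 2, which share a library and a range of depth, Pearson's r between pairs of the 10 genes had a median of 0.28 over 45 pairs and was above 0 in 35. It was highest between *Rbp4* and *Apoa1* (0.91) and lowest between *Alb* and *Apob* (−0.46).

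Other plasma protein genes were followed in the same fits, from a list of 58 names. In liver Epi cells against other epithelia 34 of the 53 tested were called higher and none lower, with transferrin *Trf* (6.63), *Ambp* (6.02), the antiplasmin *Serpinf2* (5.99), *Apoe* (5.88) and the corticosteroid-binding globulin *Serpina6* (5.84) foremost and a list median of 1.99. With embryonic day in the liver, 15 of 51 were called higher and none lower, the largest slopes being those of *Serpina6* (1.97), complement *C3* (1.56), *Fga* (1.53), *Cfi* (1.46) and the fetuin *Ahsg* (1.35), with a list median of 0.36. *Apoe* (0.02, adjusted p 1.0) and *Serpinf2* (0.10, adjusted p 1.0) had slopes near 0 although they were abundant, as *Ttr* and *Fgb* did. Background shares are the 4.25% and 0.937% given above.

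Of 12 liver transcription factors, 6 were higher in liver Epi cells than in other epithelia and none was lower: *Hhex* (3.76), *Prox1* (2.86), *Hnf4a* (2.20), *Foxa3* (2.17), *Onecut1* (1.82) and *Cebpa* (1.07). None of the 12 was called for a slope on day in the liver by limma, and their median slope was −0.13. *Hnf4a*, which binds many promoters of liver genes, had log2 levels of 2.61, 1.96 and 2.05 at E9.5, 2.15 and 1.94 at E10.5 and 3.70 at E11.5 (slope 0.56, SE 0.20, adjusted p 0.187). The E11.5 embryo was again highest. *Zhx2* and *Zbtb20*, known as repressors of *Afp* after birth, stayed at or below 0.37 in every embryo, and *Zhx2* gave no UMI in the 13 later cells.

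Of 12 tested genes for assembly, transport and partners of the 10 proteins, 5 were higher in liver Epi cells: lipoprotein lipase *Lpl* (4.03), *Mttp* (2.96), which loads lipid onto apolipoprotein B, the cholesterol esterifying *Lcat* (2.87), coagulation factor *F12* (2.61) and the lipid exporter *Abca1* (2.08). *Mttp* had log2 levels of 2.34, 3.64 and 2.58 at E9.5, 3.51 and 3.99 at E10.5 and 3.48 at E11.5, so that it was expressed at E9.5 where *Apob* was near 0 in embryo 1 (slope 0.43, adjusted p 0.471). *Lcat* (1.09) and *Abca1* (0.91) rose with day in the liver. No UMI of the retinol-binding protein receptor *Stra6* or of the bradykinin receptors *Bdkrb1* and *Bdkrb2* was found in liver Epi cells.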

How the data were processed

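Per the labels and the methods of the study, cells were picked by mouth pipette and tagged with cell barcodes and UMIs. The methods call the protocol a modified STRT, while the labels call it a modified Smart-seq2 and, for 14 samples, describe gonadal cells. The submitters' processing notes name CASAVA 1.8, TopHat2 2.0.12 and HTSeq; the authors aligned reads to mm10 and removed duplicate UMIs, and the annotation was not given in the sources used here. The deposited CPM values (UMIs per 1000000, which the authors name TPM) were turned back into UMIs with the total of each cell in the study's cell annotation, and within 0.05 UMIs every value above 0 (100%) was whole. Cell classes came from the study's cell annotation, for 1801 cells after the identical columns were counted once. Depth per cell sets the precision: 1 UMI at the shallowest liver Epi cell (83756 UMIs) exceeds the expression limit.

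The value of an embryo is its mean of log2(TPM/10 + 1), a pseudocount of 1, over at least 3 cells. The embryo is the replicate, and p-values cover the spread between embryos only. After E9.5 both embryos of a day shared 1 sample in each organ, while the fits took them as independent. The part of this sharing in their spread was not tested. Testing of genes at 1 or more in at least 3 cells used limma (version 3.58.1, R 4.3.3; eBayes with trend, two-sided, Benjamini-Hochberg adjustment over all genes tested). Calls were made at an adjusted p under 0.05 and a size of at least 1, or 0.5 per day for slopes. By the labels, sets with the same embryo name come from the same animal; over 140 such pairs of sets the correlation of deviations from the set means had a median of 0.100 (−0.104 to 0.472), against −0.0174 over 821 pairs from different embryos. The alternatives were edgeR 4.0.16 on summed UMIs (without 1 forebrain sample whose UMIs were not recovered from its values alone), log2(TPM + 1), no expression filter, at least 5 cells, thinned cells, HiSeq 4000 embryos, E9.5 embryos, the embryo as a block and each embryo left out. Counting identical columns as 2 cells, and leaving out the lung cells of E9.5 embryo 3 or 2 liver HC cells, were chosen after seeing the data. Scripts were tested on simulated data. The 10 genes and the other lists were chosen with earlier results of these data known, and lists name genes by role, the 5 with the largest difference for plasma proteins, and the 5 most alike by correlation.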

Additional observations from a re-analysis of the deposited data

Results flagged for a closer look

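Of 49 groups of 4 to 10 embryo means of the 10 genes, 15 held 1 embryo far from the others. The limit used is set for about 1 in 20 of independent groups with a normal spread. These groups share cells and embryos, and some hold means of 0, so that rate does not apply to them. For *Apob* and *Kng1* in lung Epi cells all other embryos were at 0, and 1 UMI made the flag. In liver Epi cells these were *Rbp4* at 6.24 and *Apom* at 5.45, both low in E9.5 embryo 1, and in liver HC cells *Ttr* at 1.73 in E11.5 embryo 2, above the others at 0.914 to 1.14. In intestine Epi cells, E9.5 embryo 2 was high for *Alb* (0.165) and *Kng1* (0.0577). E9.5 embryo 3, whose lung and liver cells shared a library, stood above the other embryos in lung Epi cells for *Afp* (3.21, others 0.223 to 0.726), *Apoa2* (1.92), *Apom* (1.19), *Apob* (0.0488) and *Kng1* (0.0349), and in lung Mes cells for *Apoa2* (1.81), *Rbp4* (1.33), *Apoa1* (0.863), *Apom* (0.780) and *Fgb* (0.251).

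The slope on embryonic day differed between liver and intestine for *Alb* by 2.06, for *Kng1* by 2.05 and for *Apom* by 1.42 log2 units per day, in limma's test of the difference. Among 12 liver cells without a class, which no comparison used, the highest share of UMIs from the 10 genes was 0.660%, in a cell of 10306 UMIs, and the lowest was 0.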

How the results depend on the processing

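Of 940 values of single genes under the alternatives, 843 kept their direction and their side of the threshold, 46 lost and 31 gained a call, and 20 turned sign, each at a value that was not called. Among HiSeq 4000 embryos 64 genes (59 higher) were called for the liver slope in place of 183 and 2 of the 10 in place of 4, 76 genes in place of 173 for the intestinal slope, 29 genes in place of 125 and 1 of the 10 in place of 3 for the difference of slopes, 92 genes (83 higher) in place of 227 and 2 of the 10 in place of 4 in Mes cells, where the liver then has 1 embryo that is assumed to vary like the others, and 564 genes (361 higher) in place of 103 in HC cells. With edgeR on summed UMIs these counts of genes were 93 (11 higher, against 135 of 183), 58 (12 higher, against 86 of 173), 61 (23 higher, against 97 of 125), 684 (641 higher, against 171 of 227) and 352 (150 higher, against 77 of 103), with 2 of the 10 in the liver slope and 9 in both Mes and HC cells, and 2520 (1332 higher, against 663 of 1037) in Epi cells. On log2(TPM + 1) they were 3128 in Epi cells, 288 for the liver slope, 346 in Mes cells and 192 (117 higher) in HC cells, the last with 8 of the 10 genes. At least 5 cells a mean gave 193 genes for the difference of slopes and 156 in HC cells, and no filter 191 (126 higher) for the former. E9.5 embryos alone gave 124 genes and 0 of the 10 in Mes cells. The cause was not tested. Without 2 HC cells of E11.5 embryo 2, the median HC level of the 10 genes moved to 0.660% of the Epi level from 4.71%.

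Leaving out 1 embryo at a time gave 104 to 213 genes and 3 to 4 of the 10 for the liver slope, 69 to 174 genes and 1 to 3 for the intestinal slope, 58 to 142 genes and 2 to 3 for their difference, 154 to 219 genes and 0 to 7 in Mes cells, and 15 to 156 genes and 4 to 6 in HC cells. The 15 were called without either E10.5 embryo.

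The signs that turned were those of the liver slope of *Fgb* (−0.064 with at least 5 cells; −0.10 to 0.73 leaving out embryos), the intestinal slopes of *Alb* (0.0072 among HiSeq 4000 embryos; −0.035 to 0.0063), *Fgb* (0.42 among HiSeq 4000 embryos, 0.23 in edgeR; −0.22 to 0.12) and *Kng1* (0.0047 among HiSeq 4000 embryos; −0.012 to 0.0041), the slope differences of *Ttr* (0.065 in edgeR), *Apoa1* (−0.095 among HiSeq 4000 embryos, −0.70 in edgeR, −0.44 on log2(TPM + 1)) and *Fgb* (−0.22 among HiSeq 4000 embryos; −0.094 to 0.90), and the Mes difference of *Apob* (−0.054 among HiSeq 4000 embryos, −0.015 on log2(TPM + 1); −0.045 to 0.030).

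With the embryo as a replicate block, 316 genes (237 higher) were called in HC cells, *Apoa1* was called in Mes cells (1.26, adjusted p 0.0416), and no other call among the 10 genes changed. The limits are 13 liver Epi cells after E9.5, 1 embryo at E11.5, and a HiSeq label that moves with the day. The shallowest liver Epi cell (83756 UMIs, E11.5 embryo 2) held UMIs of both *Apob* and *Kng1*. At E9.5, where cells without them were found, the shallowest liver Epi cell had 133802 UMIs, and low levels can be missed at such depths.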

Other observations

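Over 99 embryo means of all sets, which share libraries and depth within an embryo, the genes outside the list whose levels followed the mean of the 10 genes most closely were *Serpinf2* (Pearson's r 0.983), *Hpx* (0.962), *Fgg* (0.960), *Itih2* (0.959) and *Cpb2* (0.955). *Serpinf2*, which encodes alpha-2-antiplasmin, had a log2 level of 6.48 ± 0.37 (SD, n = 6) in liver Epi cells and of at most 2.58 in any embryo of another set. The hemopexin gene *Hpx* had 3.88 ± 0.88 and at most 0.844 elsewhere, and *Cpb2*, which encodes an inhibitor of clot lysis, had 3.10 ± 1.03 and at most 0.958 elsewhere. *Itih2*, an inter-alpha-trypsin inhibitor heavy chain, had 6.33 ± 0.26.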
